A study of Mus musculus with 9 samples.

Results

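The mitochondrial ribosomal protein genes of the mouse were taken as every gene name of the deposited count table made of Mrpl (large subunit) or Mrps (small subunit), a number and at most 1 further letter. The rule found 78 of the 54456 gene names, 49 for the large and 29 for the small subunit. The subunit was read from the name alone throughout, and the place of each protein in the particle was not checked. They were followed across 9 RNA-seq libraries of cultured mammary epithelial aggregates, 3 made of basal cells alone, 3 of luminal cells alone and 3 of a 50% mixture of both. All cells were wild type, sorted by flow cytometry, embedded in 80% Matrigel and set near heparin sulfate beads of 100 to 150 µm that had been soaked in 100 µg/mL FGF10, a growth factor that draws mammary epithelium towards it. Every group had the beads, so no group shows the cells without FGF10. RNA was collected after 56 h of migration by one label and 55 h by another. The labels give no animal age or sex. Nothing in them says that replicate libraries had separate animals or cultures behind them, so p-values measure only the spread between these libraries, which may be technical.

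Mitochondria keep a small genome of their own that encodes a few subunits of the respiratory chain, and they translate those messages on a ribosome distinct from the one in the cytosol. The ribosomal RNAs of this particle are made inside the mitochondrion, while all of its proteins, the genes described here, are encoded in the nucleus, translated in the cytosol and imported. Their genes are known to rise with mitochondrial biogenesis and cell growth.

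Libraries held 15585324 to 19164405 counts. Values are CPM, counts scaled to the library total with TMM factors, and a log2 difference of 1 is a doubling. A gene was called when edgeR's quasi-likelihood test gave a Benjamini-Hochberg adjusted p under 0.05 over all 18051 genes that passed a filter on low counts. The basal keratin gene Krt5 stood at 1631 to 2109 CPM in the basal libraries, 23.2 or less in the luminal and 1084 to 1157 in the mixed. The luminal keratin gene Krt8 stood at 1253 to 1998 CPM in the luminal libraries and was also present in the basal ones, at 914 to 1046. The 6 luminal markers (Krt8, Krt18, Krt19, Cldn4, Muc1 and Kit) together took 0.254% to 0.318% of counts in basal libraries. They took 0.536% to 0.758% in luminal and 0.721% to 0.843% in mixed libraries. Between mixed and luminal aggregates, 2 of the 6 were called higher and 3 lower, where 15.2% and 14.2% of tested genes were. The column names of the count table fall into 3 code series whose meaning is not given in the sources used here. Series A holds basal 2 and all 3 mixed libraries, series B holds basal 1, basal 3 and luminal 1, and series C holds luminal 2 and luminal 3. Mixed and luminal libraries never share a series, so for that comparison the kind of aggregate and the code series cannot be told apart.

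As a share of all counts, the 78 genes together took 0.423%, 0.649% and 0.487% in basal libraries 1, 2 and 3. The share was 0.397%, 0.471% and 0.337% in luminal libraries 1, 2 and 3, and 0.606%, 0.561% and 0.617% in the mixed ones. The means were 0.520% ± 0.117 (SD, n = 3) for basal, 0.402% ± 0.0668 (SD, n = 3) for luminal and 0.595% ± 0.0296 (SD, n = 3) for mixed aggregates. All 3 mixed libraries lay above all 3 luminal libraries, while the basal group reached both below and above the mixed one through basal 2. Within series B the single luminal library, at 0.397%, lay below both basal ones, and within series A the single basal library, at 0.649%, lay above all 3 mixed ones. The counts of the large subunit were 1.74 to 2.08 times those of the small subunit over the 9 libraries. This ratio was 1.74 to 1.95 in the luminal libraries, below its value in every basal and mixed library. Within series B, luminal 1 lay below both basal libraries for the large subunit, at 0.252% against 0.283% in basal 1. For the small subunit luminal 1 lay below basal 3 but above basal 1, at 0.1451% against 0.1403%. In bulk RNA, a lower share cannot be told apart as fewer cells with a high level or as less RNA of these genes per cell.

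**Figure D1:**
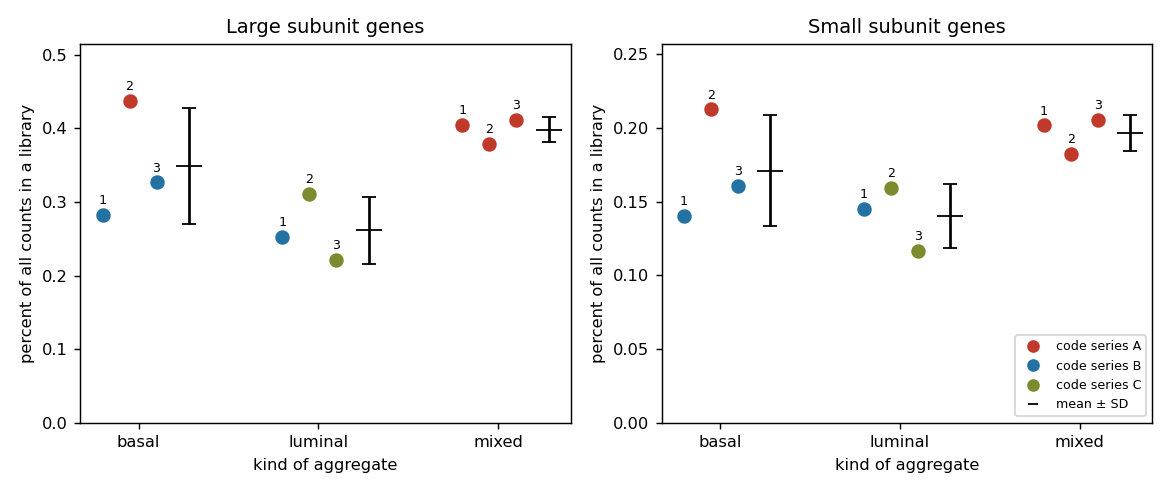
Percent of all counts that fell on large subunit genes (left) and small subunit genes (right) in each library, with the replicate number beside each point, colours for the code series and black marks for the mean ± SD of 3 libraries. In both panels basal 2 is the highest point, above all 3 mixed libraries, and luminal 3 is the lowest.

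The library-to-library pattern was shared by most of the genes. Of the 77 members that passed the filter, 73 were higher in basal 2 than in both other basal libraries, and 43.2% of all tested genes were. The 4 exceptions were Mrps9, Mrpl24, Mrpl23 and Mrps27. For 47 of 77 members, every library of series A lay above every other library, against 12.2% of all tested genes. Basal 2 was the highest of the 9 libraries for 38 members and mixed 3 for 20, while luminal 3 was the lowest for 46 and basal 1 for 20. The highest and lowest libraries were not counted over all tested genes. The median member stood 0.48 (log2) above its own mean over the 9 libraries in basal 2 and 0.20 to 0.38 above it in the mixed libraries. It stood below that mean by value in the others, at -0.37 in basal 1, -0.10 in basal 3 and -0.54, -0.32 and -0.01 in luminal 3, 1 and 2. Immune transcripts followed the same division of the libraries: Cd74, an antigen presentation chaperone, was at 26.3 to 36.4 CPM in series A and at 0.06 to 1.88 elsewhere. Lyz2, the lysozyme of macrophages and neutrophils, was at 8.30 to 33.7 CPM in series A and at 0.15 or less elsewhere. The other defining immune markers did not follow this division, since Ptprc, Adgre1 and Cd3e stayed at or below 0.87 CPM in every library and the macrophage gene Cd68 was highest in the luminal libraries, at 20.9 to 50.2. The part of these cells in the members' levels was not tested.

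**Figure D2:**
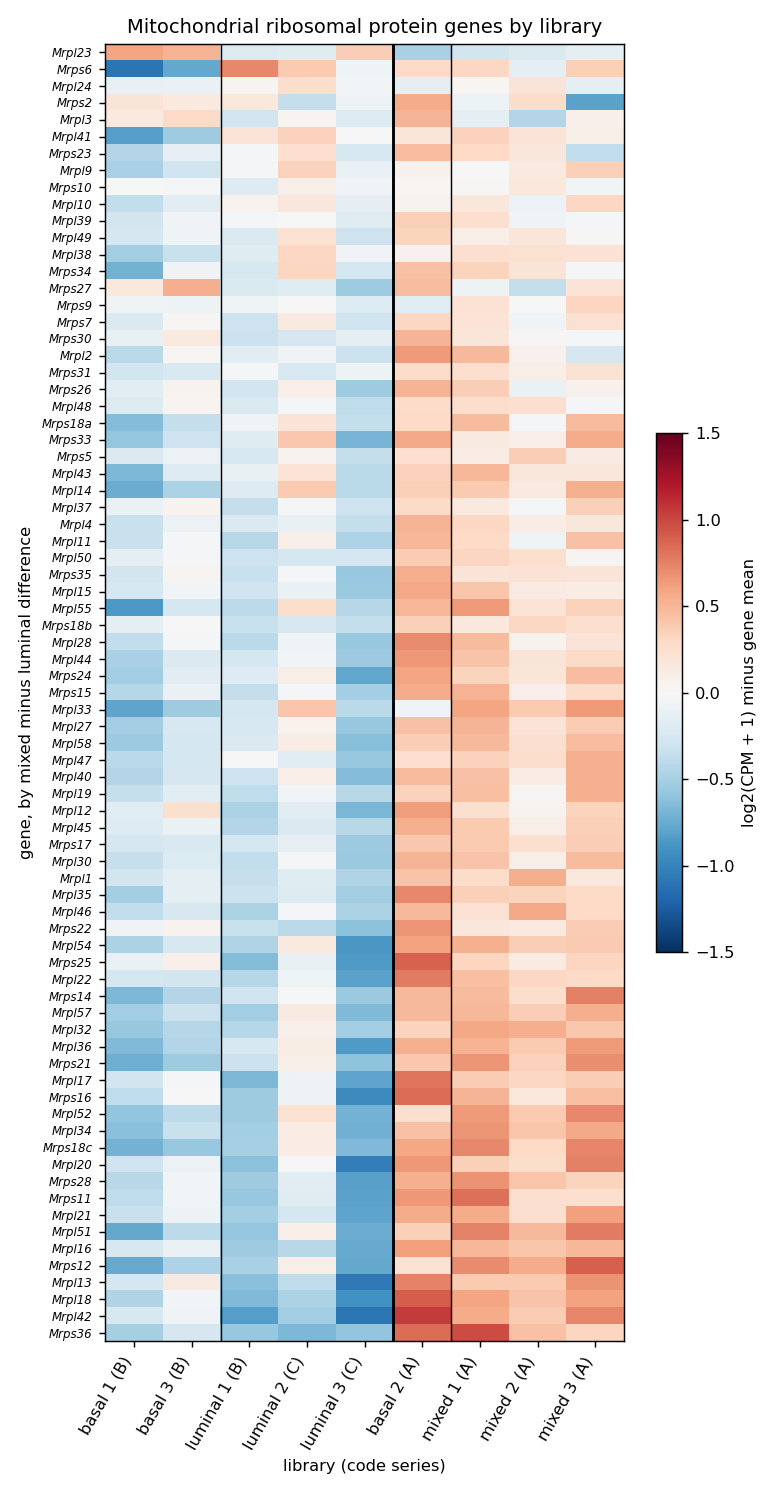
Each row is one of the 77 tested genes, sorted by the mixed minus luminal difference, and each column a library with its code series in brackets; colour gives log2(CPM + 1) minus the gene's mean over 9 libraries. The thick line separates series A on the right, where most rows are red, from series B and C, and Mrps6, Mrpl23 and Mrps27 are among the rows that depart from the pattern.

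Levels differed widely between the genes. Per kilobase of exon, summed over all transcripts of a gene, the median member stood at 24.5 CPM averaged over the 9 libraries. The highest were Mrps21 at 135, Mrps12 at 110, Mrps6 at 107, Mrpl54 at 107 and Mrpl36 at 97.6 CPM per kilobase. The lowest tested were Mrpl23 at 1.09, Mrps36 at 3.60, Mrpl48 at 3.88, Mrps5 at 4.79 and Mrpl47 at 4.81 CPM per kilobase. These levels rest on the annotation, because a long rare transcript adds exon length without adding reads, and because reads over exons shared by several genes are not assigned by a counter run without the option for overlaps. Of the 78 members, 32 share exon bases with another gene name and 10 share at least 20%. Mrpl53 (chr6:83086021-83086920, mm39), with 88.0% of its exon bases shared with Ccdc142os and Gm42688, had 1 count in all libraries and was the only member not tested. The others were Mrps34 (77.8%), Mrps25 (69.8%, with Nr2c2), Mrpl19 (36.0%), Mrpl43 (33.4%, with the helicase gene Twnk), Mrps18b (30.5%), Mrpl24 (26.3%), Mrps27 (24.2%), Mrpl47 (24.2%) and Mrps18c (23.2%), and their levels are uncertain for that reason.

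The comparison of luminal with basal aggregates asks how the 2 epithelial lineages differ when each migrates alone. Of 77 tested members, 66 had a negative difference, the median was -0.31 (log2), and the median of all tested genes was -0.02. Lower levels in luminal aggregates were called for 8 members (10.4%), 5 of the large and 3 of the small subunit, and higher levels for 0. The background was 14.4% of tested genes called lower and 12.8% called higher. The share called lower was therefore below that of genes in general in this fit. At an unadjusted p under 0.05 the counts were 16 lower and 1 higher, beside 3590 lower and 3185 higher of 18051 tested genes. The share lower was then near that of tested genes.

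The largest difference was in Mrpl42 (chr10:95316667-95337802, mm39), which encodes a large subunit protein particular to mitochondria. It stood at 72.8, 179 and 82.6 CPM in basal libraries 1 to 3 and at 48.1, 59.6 and 39.9 in luminal libraries 1 to 3. The groups did not overlap, and basal 2 was more than 100 CPM above every luminal library. The fitted difference was -1.18 ± 0.31 (SE), with an adjusted p of 0.014 in edgeR's quasi-likelihood test. Mrpl13 (chr15:55397490-55421144), the counterpart of a bacterial large subunit protein, stood at 79.1, 159 and 104 CPM in the basal and 61.2, 72.3 and 44.6 in the luminal libraries, a difference of -0.94 ± 0.26 (SE). Mrpl18 (chr17:13130236-13135232), of a protein family that binds ribosomal RNA, stood at 61.1, 158 and 81.8 CPM against 52.4, 60.2 and 44.2, a difference of -0.94 ± 0.29 (SE). In both genes basal 2 was the highest of the 9 libraries, and the lowest basal library lay within 10 CPM of the highest luminal one.

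The other 5 called members had smaller differences. Mrps25 fell by 0.88, Mrpl16 by 0.73, Mrps22 by 0.72, Mrps27 by 0.72 and Mrpl12 by 0.71 (log2), with adjusted p-values from 0.023 to 0.039. Mrps25 is read with caution, since 69.8% of its exon bases also belong to Nr2c2. Mrpl12 encodes a stalk protein that also binds the mitochondrial RNA polymerase. It stood at 86.4, 150 and 114 CPM in the basal and 69.1, 85.2 and 59.8 in the luminal libraries, so that its lowest basal and highest luminal values were almost equal. Mrps27 (chr13:99481294-99552070), an RNA-binding pentatricopeptide protein of the small subunit, was the only one of the 8 in which basal 2 did not lead. It stood at 39.9, 49.5 and 52.4 CPM in the basal and 30.6, 31.2 and 24.3 in the luminal libraries.

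Across all 77 members, 14 had every luminal library below every basal library, against 23.4% of all tested genes. All 10 markers of proliferation, such as Mki67 at 200, 286 and 202 CPM in basal and 2.91 to 4.67 in luminal libraries, were called lower in luminal aggregates, with a median of -4.48. The summed share of these markers was 0.190% to 0.221% of counts in basal, 0.0111% to 0.0136% in luminal and 0.136% to 0.158% in mixed libraries. Of the 7 fibroblast markers, 6 were tested and 3 were called lower in luminal libraries. Their summed share was 0.0137% to 0.0145% of counts in basal, 0.000637% to 0.00109% in luminal libraries, and 0.00452% to 0.00681% in mixed libraries, where 3 of the 6 were called higher than in luminal ones. Col1a2 was at 0 in all 3 luminal libraries, and Fbln1 was at 90.5 to 131 CPM in basal, 1.18 or less in luminal and 29.2 to 33.1 in mixed libraries. The part of proliferation or of stromal cells in the members' difference was not tested.

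With the code series as a term, the fit takes this difference from luminal 1 against basal 1 and 3 within series B. The luminal minus basal median was then -0.10 and 0 members were called lower, where the background was 6.80%. At an unadjusted p under 0.05, 1 member was lower, beside 2233 of 18051 tested genes. All 8 called genes kept a negative sign without passing, for instance Mrpl42 at -0.69 (adjusted p = 0.154) and Mrps27 at -0.59 (adjusted p = 0.315). Without basal 2, the median was -0.03 and 2 members were called lower, Mrpl42 at -0.67 and Mrps27 at -0.69, where the background was 12.4%. Leaving out luminal 1 or luminal 3 instead left 0 of the 8 called, and 0 of 77 members were called lower. All tested genes then gave 1907 of 18944 lower without luminal 1 and 2013 of 18948 without luminal 3.

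**Figure D3:**
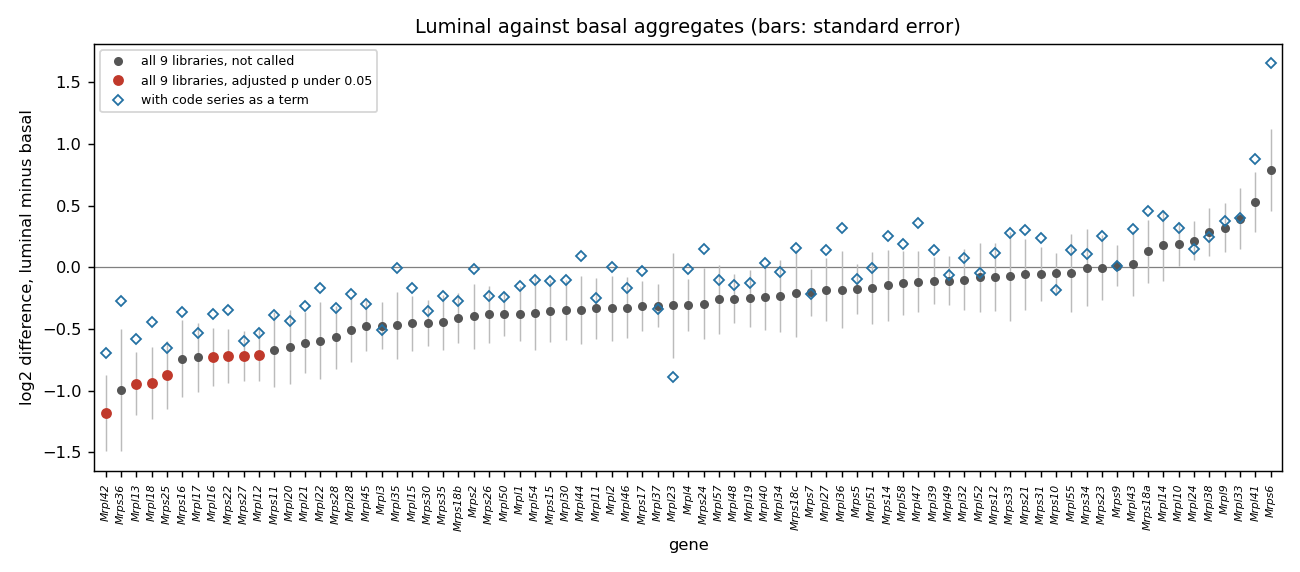
Luminal minus basal log2 difference of the 77 tested members in rank order, as circles with standard errors for all 9 libraries (red where called) and as open diamonds with the code series as a term. The 8 called members sit between -0.71 and -1.18, most diamonds lie closer to 0 than their circles, and Mrps6 and Mrpl41 at the right end move further up.

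Mrps6 and Mrpl41 went the other way. Mrps6 (chr16:91855158-91909115), the counterpart of a bacterial small subunit protein, stood at 71.6, 187 and 89.5 CPM in basal libraries 1 to 3. It stood at 254, 202 and 147 CPM in luminal libraries 1 to 3 and at 191, 139 and 197 in the mixed ones. The 2 lower basal libraries were below every other library, and basal 2 lay inside the luminal range. Over all 9 libraries the luminal minus basal difference was 0.79 ± 0.33 (SE), with an adjusted p of 0.103. It was 1.65 ± 0.27 (SE) with the code series as a term (adjusted p = 0.0032) and 1.31 ± 0.25 (SE) without basal 2 (adjusted p = 0.0027). Mrps6 shares 19.9% of its exon bases with Slc5a3, an inositol transporter gene, and Gm49711. Slc5a3 itself was called higher in luminal aggregates, at 78.9 to 154 CPM against 37.8 to 51.7 in the basal ones (1.30, adjusted p = 0.0017). Whether reads of one gene were counted for the other was not tested.

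Mrpl41 (chr2:24864129-24865110), a large subunit protein particular to mitochondria whose exons are shared with no other gene, gave a similar picture at a lower level. It stood at 32.2, 65.6 and 39.5 CPM in basal, 65.9, 73.9 and 58.2 in luminal and 73.9, 66.0 and 61.7 in mixed libraries. Again basal 1 and basal 3 were the 2 lowest of the 9 libraries. The luminal minus basal difference was 0.53 ± 0.24 (SE, adjusted p = 0.134) over all libraries, 0.88 ± 0.24 (SE, adjusted p = 0.040) with the code series as a term and 0.87 ± 0.18 (SE, adjusted p = 0.0042) without basal 2. Mrps6 and Mrpl41 were the 2 members called higher in luminal aggregates with the series term, where the background was 7.09%.

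**Figure D4:**
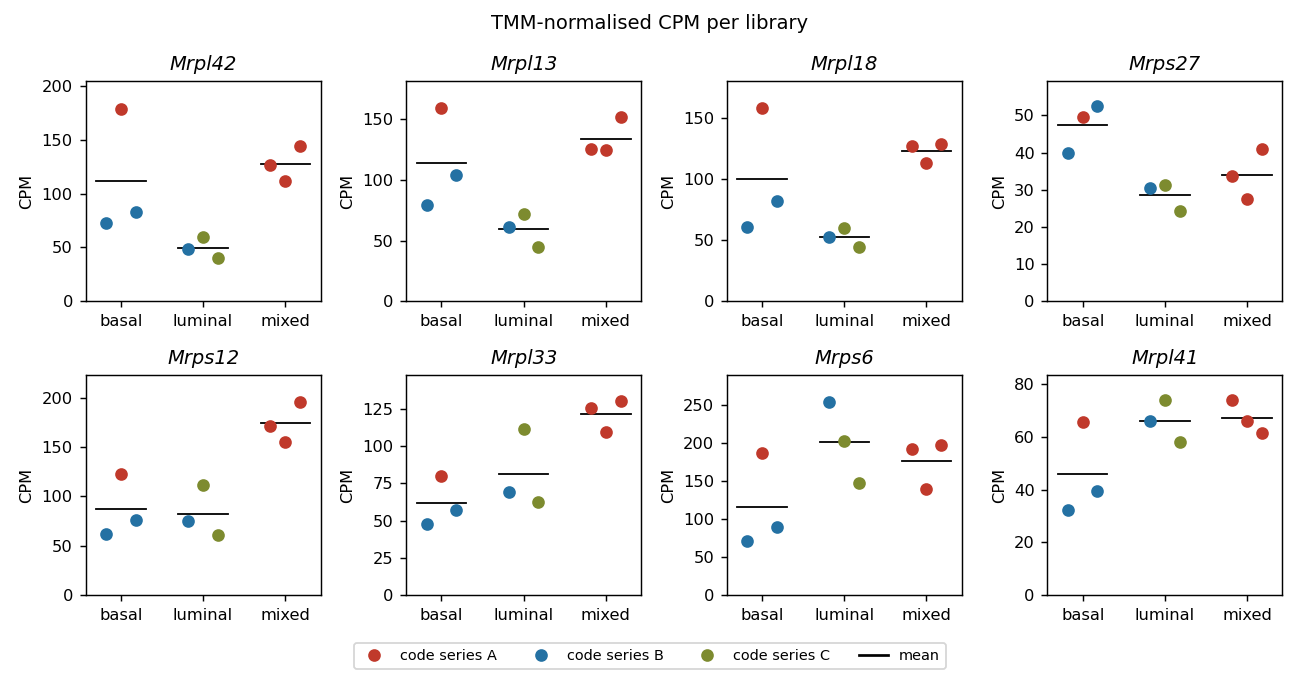
CPM of 8 members in each library, coloured by code series, with a line at the mean of 3 libraries. In Mrpl42, Mrpl13 and Mrpl18 the basal library of series A stands apart from the other basal libraries, and in Mrps6 and Mrpl41 the basal libraries of series B are the lowest.

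Mixed aggregates were set against basal ones to ask what changes when luminal cells are added. The median member difference was 0.29 and that of all tested genes was -0.07. Higher levels in mixed aggregates were called for 2 members (background 6.39%) and lower levels for 0 (background 7.33%). At an unadjusted p under 0.05 the counts were 10 higher and 2 lower, beside 2350 higher and 2975 lower of 18051 tested genes. The share higher was then near that of tested genes. Mrps12 (chr7:28439066-28441245), the counterpart of a bacterial protein at the decoding centre, stood at 61.9, 123 and 76.1 CPM in basal and 172, 155 and 196 in mixed libraries. Its mixed values were all above its basal ones, with a difference of 1.00 ± 0.28 (SE) and an adjusted p of 0.034. Mrpl33 (chr5:31754279-31821728), the counterpart of a small bacterial large subunit protein, stood at 47.6, 80.1 and 57.2 CPM in basal and 126, 110 and 130 in mixed libraries. Its difference was 0.98 ± 0.25 (SE), with an adjusted p of 0.024, and the groups did not overlap. Every mixed library was above every basal library for 8 members, against 14.5% of tested genes.

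Without basal 2, 32 members were called higher in mixed aggregates and the median was 0.61, where the background was 13.9%. With the code series as a term, where basal 2 is the only basal library beside the mixed ones, 0 members were called in either direction and the median was -0.12. The background was 2.93% higher and 1.79% lower. At an unadjusted p under 0.05 the counts were 0 higher and 2 lower, beside 1639 higher and 1647 lower of 18051 tested genes. Mrps12 was then at 0.51 (adjusted p = 0.469) and Mrpl33 at 0.60 (adjusted p = 0.355). Within series A, Mrps12 was at 123 CPM in basal 2 and at 155 or more in every mixed library, and Mrpl33 at 80.1 in basal 2 and 110 or more in every mixed library. For Mrpl42, Mrpl18 and Mrpl13 the value in basal 2 was above all 3 mixed libraries instead.

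The comparison of mixed with luminal aggregates asks what changes when basal cells are added, and it gave the most calls among the members. The median was 0.59 against -0.05 over all tested genes, and 72 of 77 differences were positive. Higher levels in mixed aggregates were called for 21 members (27.3%), 14 of the large and 7 of the small subunit, where the background was 15.2%. Lower levels were called for 0, where the background was 14.2%. At an unadjusted p under 0.05 the counts were 45 higher and 0 lower, beside 3811 higher and 3715 lower of 18051 tested genes. Every mixed library was above every luminal library for 51 members, against 25.0% of tested genes.

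Mrps36 had the largest difference, 1.53 ± 0.50 (SE, adjusted p = 0.039), at a low level. It stood at 2.45, 2.19 and 2.37 CPM in luminal and 9.04, 5.91 and 5.29 in mixed libraries, with basal 2 at 8.10 and the other basal libraries at 2.59 and 3.28. Its product is also known as a part of the oxoglutarate dehydrogenase complex, and 3 pseudogenes of it carry their own names in the table, so its reads could be split. Mrpl42 was next at 1.37 ± 0.31 (SE, adjusted p = 0.0081), with 127, 112 and 144 CPM in the mixed libraries. Mrpl18 rose by 1.23, Mrpl13 by 1.17, Mrps12 by 1.08, Mrpl16 by 1.07, Mrpl51 by 1.05 and Mrpl21 by 1.00. Mrpl51 (chr6:125168764-125173232), a mitochondrion-specific large subunit protein, stood at 82.3, 132 and 73.4 CPM in luminal and 208, 174 and 213 in mixed libraries. Its values in basal libraries were 72.1, 159 and 93.4 CPM, which overlapped the luminal ones.

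None of the 21 calls stayed with the code series as a term, where 0 members were called higher against a background of 2.05%. At an unadjusted p under 0.05 there were also 0 members higher, beside 1319 of 18051 tested genes. In that fit 18 of the 21 kept a positive sign, the median over all 77 was -0.07 and the only call was Mrps6, lower in mixed aggregates at -1.74 ± 0.37 (SE, adjusted p = 0.044). The background of genes called lower in that fit was 0.670%. Without basal 2 the count was 46 higher, where the background was 17.9%. Without luminal 1 it was 5 of 77, where 1623 of 18944 tested genes were called higher. Without luminal 3 it was 4 of 77, where 1550 of 18948 were. Leaving out mixed 1, 2 or 3 left 6, 12 and 9, where 1942 of 18938, 2295 of 19030 and 1992 of 18941 were. The members' share was below that of tested genes without luminal 1, luminal 3 or mixed 1, and above it without mixed 2 or mixed 3. Mixed and luminal libraries are joined in the series fit only through the basal ones, and its standard errors for this difference were larger, 0.37 for Mrpl42 and 0.46 for Mrps12.

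By value, 65 of 77 members were higher in mixed aggregates than in both pure groups, 9 lay between and 3 were below both. The same split was not counted over all tested genes, so how common it is among them is not known. No member passed the test of lying outside both, in which the lowest adjusted p was 0.184, for Mrps12. Over all genes that test called 9 above and 7 below. For the 8 members called between luminal and basal, the position of the mixed aggregates was taken from the fitted log2 differences. They stood at a median of 107% of the way from the luminal to the basal level, where a mixture of equal RNA would lie between 0 and 100. On mean log2 CPM the median was 115%, and it was 113%, 101% and 135% in mixed 1, 2 and 3. These 8 were selected on the same libraries. The position was not taken over all genes called between luminal and basal, so it is not shown to be particular to the members. From fitted differences the value for the 8 members was 19.8% with the code series as a term and 168% without basal 2.

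Members with further roles gave few calls. Mrpl58, a peptidyl-tRNA hydrolase that rescues stalled ribosomes, stood at 34.8 to 66.8 CPM in basal, 32.6 to 55.7 in luminal and 60.8 to 72.8 in mixed libraries, and was not called in any of the 3 comparisons. Of the 3 paralogues of one bacterial small subunit protein, Mrps18a was the most abundant at 55.3 to 122 CPM, Mrps18b stood at 16.5 to 27.7 and Mrps18c at 14.4 to 40.7. None of the 3 was called, and their mixed minus luminal differences were 0.39, 0.58 and 0.94 (adjusted p = 0.271, 0.053 and 0.066). Mrpl45, which resembles a membrane-bound import factor and lies at the exit of the ribosome's tunnel, was called higher in mixed than in luminal aggregates (0.65, adjusted p = 0.036). The stalk and stalk-base genes Mrpl10 and Mrpl11 were called in none of the 3 comparisons.

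Several members are known as genes of inherited deficiency of the respiratory chain in humans, among them Mrps2, Mrps16, Mrps22, Mrps34, Mrpl3, Mrpl12 and Mrpl44. Of these, Mrps22 and Mrpl12 were called in 2 comparisons, lower in luminal than in basal and higher in mixed than in luminal aggregates. Mrps22 (chr9:98470783-98483713) stood at 32.8, 54.5 and 35.2 CPM in basal, 26.8, 25.6 and 21.8 in luminal and 38.4, 37.8 and 44.7 in mixed libraries. The others were not called. Mrpl3 stood at 60.4, 78.5 and 67.0 CPM in basal, 44.8, 56.4 and 47.1 in luminal and 49.7, 40.0 and 57.7 in mixed libraries, and its mixed and luminal values overlapped. Mrps2 was unlike most members in that mixed 3, at 25.8 CPM, was its lowest library, and mixed 2, at 55.8, the highest of the mixed ones.

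Promoters were examined because most members moved together across the libraries. In RefSeq, 69 of the 78 genes had a promoter, in 75 windows of 300 bases that span 250 before and 50 after the start. The motif CCGGAAG, read by ETS factors such as GABPA, was in 34.7% of member windows, 8.86% of all 32851 windows and 15.9% of those of tested genes, on either strand. The letters GCGCATGC, the core of the NRF1 motif, were in 10.7%, 2.71% and 4.69%, and AAGATGGCG, a YY1 motif, in 10.7%, 1.40% and 2.64%. At least 1 of the 3 was in 36 of the 69 genes, and the ETS and YY1 motifs can overlap by 3 letters. The mixed minus luminal median was 0.70 over the 25 tested genes with the ETS motif, 0.58 over 8 with the NRF1 core, 0.64 over 8 with the YY1 motif and 0.56 over 33 with none of them. A match is a description of the letters and does not show that a factor bound there.

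The 250 bases before the start are printed for 5 genes, 5′ to 3′ on the strand of the gene, with motif matches in capitals (GRCm38.p6). Mrps22 (chr9:98601680-98601929, minus strand) and Mrpl51 (chr6:125191950-125192199, plus strand) were called and hold the ETS motif, at position -11 and position -90 from the start. Mrpl33 (chr5:31613701-31613950, plus strand) was called against basal aggregates and holds the NRF1 core at position -12. Mrpl42 (chr10:95501950-95502199, minus strand), with the largest luminal minus basal difference, and Mrps6 (chr16:92058086-92058335, plus strand), with the opposite pattern, hold none of the 3 in these bases. The cut at the start leaves out matches counted above, the YY1 motif of Mrpl42 at position 28 after the start and an ETS motif of Mrpl33 that begins at position -3 and runs past it.
Mrps22: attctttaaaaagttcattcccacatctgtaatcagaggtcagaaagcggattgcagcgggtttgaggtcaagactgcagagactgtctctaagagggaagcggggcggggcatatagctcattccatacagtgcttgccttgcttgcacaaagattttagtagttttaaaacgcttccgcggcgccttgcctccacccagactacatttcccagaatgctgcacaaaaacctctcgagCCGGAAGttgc
Mrpl51: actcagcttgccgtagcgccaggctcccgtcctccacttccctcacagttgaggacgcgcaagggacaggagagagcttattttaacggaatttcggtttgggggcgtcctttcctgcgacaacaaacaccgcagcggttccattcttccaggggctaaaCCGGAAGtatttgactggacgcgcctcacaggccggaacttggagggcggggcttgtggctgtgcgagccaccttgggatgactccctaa
Mrpl33: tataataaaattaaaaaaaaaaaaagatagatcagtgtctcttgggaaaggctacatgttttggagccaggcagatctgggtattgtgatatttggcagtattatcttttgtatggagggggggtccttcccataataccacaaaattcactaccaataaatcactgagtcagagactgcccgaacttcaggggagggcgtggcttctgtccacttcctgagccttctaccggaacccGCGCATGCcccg
Mrpl42: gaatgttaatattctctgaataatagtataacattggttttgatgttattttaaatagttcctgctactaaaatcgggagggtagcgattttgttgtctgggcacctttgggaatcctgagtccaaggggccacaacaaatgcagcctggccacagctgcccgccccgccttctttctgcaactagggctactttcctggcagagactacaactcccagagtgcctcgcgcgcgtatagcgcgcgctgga
Mrps6: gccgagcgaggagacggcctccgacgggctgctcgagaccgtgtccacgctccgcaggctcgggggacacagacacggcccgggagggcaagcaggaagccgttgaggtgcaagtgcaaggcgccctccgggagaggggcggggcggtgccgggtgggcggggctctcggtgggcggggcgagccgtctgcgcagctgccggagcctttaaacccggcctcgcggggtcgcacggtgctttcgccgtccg

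Other genes that the mitochondrial ribosome works with were read from lists. The backgrounds given above were 14.4% of tested genes called lower and 12.8% higher in luminal than basal aggregates. They were 6.39% higher and 7.33% lower in mixed than basal, and 15.2% higher and 14.2% lower in mixed than luminal ones. The 13 proteins encoded in the mitochondrial genome, which this ribosome translates, had 9 called lower in luminal than basal aggregates, 8 called higher in mixed than basal and 13 called higher in mixed than luminal. Their medians were -0.88, 0.72 and 1.57, and with the code series as a term -0.75 (5 lower), 0.40 (0 called) and 1.08 (1 higher). Their summed share of counts was 2.18%, 2.10% and 2.04% in basal, 1.03% to 1.07% in luminal and 2.68% to 2.83% in mixed libraries. In that share basal 2 lay between the other 2 basal libraries, whereas it was the highest of the 3 in the share of the ribosomal protein genes. Of the 2 mitochondrial ribosomal RNAs, mt-Rnr2 was called lower in luminal than basal aggregates (-0.98) and both mt-Rnr1 (1.17) and mt-Rnr2 (1.36) higher in mixed than luminal ones. With the code series as a term neither was called in any comparison. The labels name a kit for mRNA libraries, so how much of these RNAs was captured is not known.

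The 5 proteins of the particle that carry other names gave 1 call lower in luminal aggregates, 1 lower in mixed than basal ones and 0 between mixed and luminal. Both were Ptcd3, a small subunit protein, at 72.0, 68.1 and 73.4 CPM in basal, 51.9, 38.3 and 45.9 in luminal and 40.6, 40.8 and 39.7 in mixed libraries. It fell by 0.65 and by 0.82 (adjusted p = 0.011 and 0.0079), with adjusted p = 0.217 and 0.068 when the code series was a term, and unlike most members it was lowest among the basal libraries in basal 2. Dap3, another small subunit protein of that list, stood at 75.7 to 103 CPM in all libraries and was not called. The 26 assembly and rRNA modification genes had medians of 0.01, -0.13 and -0.16 in luminal minus basal, mixed minus basal and mixed minus luminal, with 3 called lower in the last, among them Mtg2 (-1.01) and Rcc1l (-0.92). The 17 mitochondrial tRNA synthetases had medians of -0.09, -0.23 and -0.25, with 3 called lower in mixed than luminal aggregates (17.6%, background 14.2%). Of the 16 tested genes for translation factors and membrane insertion, 3 were called higher in mixed than luminal aggregates (18.8%, background 15.2%). They were the elongation factors Tufm (0.93) and Tsfm (0.90) and the insertase Oxa1l (0.58), and Guf1 was called lower (-1.04). With the code series as a term, none of the genes in these 4 lists was called in any of the 3 comparisons.

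The protein genes of the other ribosome, of complex I and of mitochondrial import were also read. The 76 cytosolic ribosomal protein genes had medians of -0.55, 0.39 and 0.91. Of these, 9 were called lower in luminal than basal aggregates (11.8%, background 14.4%). In mixed aggregates 47 were called higher than in luminal ones (61.8%, background 15.2%). The 37 nuclear genes of complex I subunits had medians of -0.22, 0.52 and 0.61. Of these, 12 (32.4%, background 15.2%) were called higher in mixed than luminal aggregates and 3 (8.11%, background 6.39%) higher in mixed than basal ones. Ndufa6 alone was called between luminal and basal aggregates, higher in luminal (0.99). The 14 genes for import and mitochondrial abundance had medians of -0.39, -0.08 and 0.48. Of these, 4 (28.6%) were called lower in luminal than basal aggregates, and 6 (42.9%) higher and 1 (7.14%) lower in mixed than luminal ones. Among them the mitochondrial chaperonin genes Hspe1 (-1.41 and 1.54) and Hspd1 (-1.14 and 1.01) were called in both comparisons. With the code series as a term all 3 lists had 0 calls between mixed and luminal. In that fit 1 of the 14 import genes was called lower in luminal than basal aggregates. There 2 of the 37 complex I genes were called higher in luminal than basal ones, and the complex I median was 0.07. Among regulators, Ppargc1a, a coactivator of mitochondrial genes, was called higher in luminal than basal aggregates (2.06, adjusted p = 0.0011) at 12.8 to 16.0 CPM against 2.82 to 4.21, a direction opposite to that of most members. It was called lower in mixed than luminal aggregates (-1.08, adjusted p = 0.035). Myc, a growth regulator, was called lower in luminal than basal aggregates (-0.50, adjusted p = 0.016) and higher in mixed than luminal ones (0.77, adjusted p = 0.0023). Gabpb2, which encodes a partner of GABPA, was called lower in luminal than basal aggregates (-0.64, adjusted p = 0.032). Between mixed and luminal aggregates, Yy1 was called higher (1.06, adjusted p = 0.024) and Esrra, a nuclear receptor gene, lower (-1.20, adjusted p = 0.015). Nrf1 was called lower in mixed than basal aggregates (-0.84, adjusted p = 0.049), at 24.7 to 42.5 CPM against 42.2 to 74.3. With the code series as a term, 1 regulator call remained, Ppargc1a in luminal minus basal (2.19, adjusted p = 0.020).

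**Figure D5:**
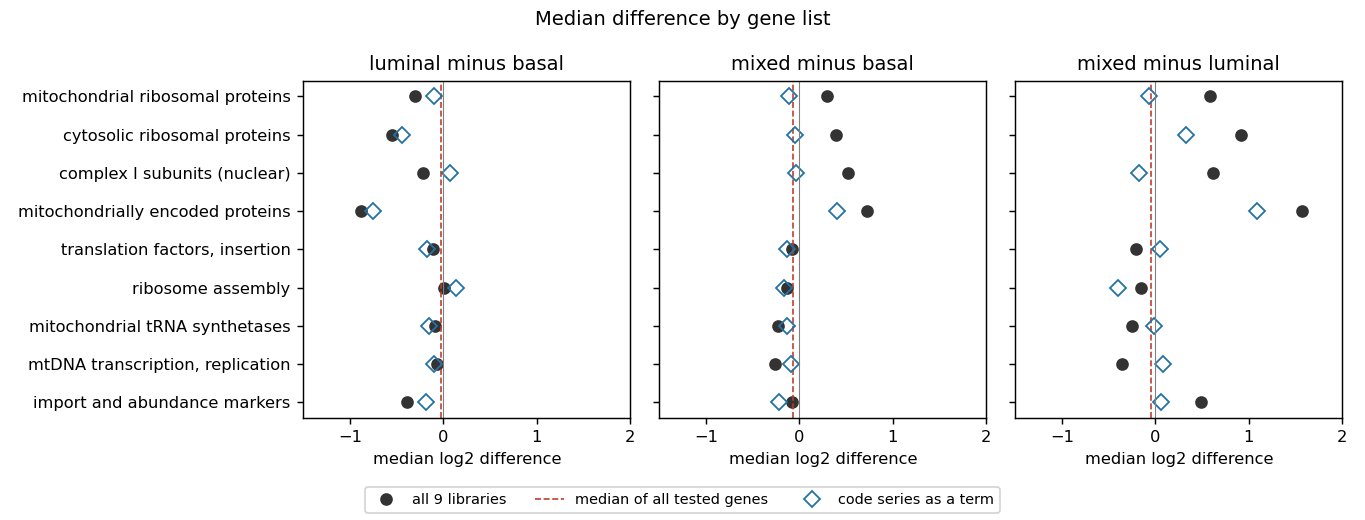
Median log2 difference of each gene list in the 3 comparisons, as circles for all 9 libraries and open diamonds with the code series as a term; the dashed line is the median of all tested genes. The circles of mitochondrial and cytosolic ribosomal proteins, complex I subunits and mitochondrially encoded proteins lie left of the line for luminal minus basal and right of it for the other 2 comparisons, and most diamonds lie closer to 0.

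Transcript length was read beside the differences. The members' median transcript length was 1056 bases against 2176 over the 13406 tested genes with a protein-coding transcript in GENCODE M21. When those genes were cut into 4 length classes of equal size, 45 members fell in the shortest class. There, basal 2 exceeded the mean of basal 1 and 3 by a median of 0.34 (log2) over all genes and 0.83 over the members. From the next class to the longest, the medians over all genes were 0.07, -0.17 and -0.12, and those over the members were 0.50 (16 members), 0.67 (11) and 0.65 (5). Mixed minus luminal medians ran 0.15, -0.11, -0.23 and 0.00 over all genes from the shortest class to the longest, and 0.65, 0.36, 0.65 and 0.67 over the members. Luminal minus basal medians were -0.04, 0.01, 0.03 and -0.05 over all genes and -0.26, -0.24, -0.17 and -0.38 over the members, so this difference showed no trend with length over all genes. The members' medians were above those of all genes in each class for the first 2 differences and below them in each class for luminal minus basal, and the part of length in their differences was not tested beyond these classes.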

How the data were processed

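Raw read counts per gene name were deposited by the authors as 1 table for 9 libraries. Per the file headers, reads were counted as pairs over exons with featureCounts 2.0.1, with no option for strand or overlapping genes, although the labels name a stranded kit. Reads were trimmed with Trim Galore and set on mm39, per the submitters' processing notes; the labels give no alignment settings. Groups came from the labels. Here edgeR 4.0.16 (R 4.3.3) was run on all 9 libraries and 3 groups, with filterByExpr, TMM scaling and the robust quasi-likelihood test on 6 residual degrees of freedom, with Benjamini-Hochberg adjustment over 18051 genes. Alternatives were DESeq2 1.42.0, limma-voom (limma 3.58.1), other scalings and filters, a replicate block, the code series as a term (4 residual degrees of freedom) and each library left out. The fit was tested on simulated data.

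The members and the gene lists were chosen with earlier results of these data known. Named members are up to 8 called members per comparison and direction, the 5 highest and 5 lowest by level per kilobase, those not tested, those with at least 20% shared exon bases and a set fixed for their role; Mrpl23, Mrps9 and Mrpl24 in the account of basal 2, the immune genes, the transcript length classes and the alternative without basal 2 printed beside results were singled out after values were seen. Promoters come from RefSeq on GRCm38.p6 and were matched by symbol; only the first 8 letters of the NRF1 motif were searched. No pair of libraries of the same group agreed within sampling noise (chi-square per degree of freedom 10.6 to 93.1). No unmapped column of values was used. Counting error at this depth makes 3 counts equal to 0.157 to 0.192 CPM.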

Additional observations from a re-analysis of the deposited data

How the results depend on the processing

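Counts of called members depended on the code series, on single libraries and, for library size scaling, on the scaling. In what follows, brackets hold the calls in the same direction over all tested genes, where they are not given elsewhere. Luminal minus basal gave 8 lower and 0 higher. It gave 20 lower with library size scaling, 4 lower with the 2 groups alone (2668 of 17209) and 0 lower against a 1.5-fold change (1628 of 18051). With the code series as a term it gave 0 lower and 2 higher. It gave 1 higher with DESeq2 (2794 of 18051) and with no filter (2559 of 33929). Mixed minus basal gave 2 higher. It gave 6 with DESeq2 (1664 of 18051), 6 with limma-voom (1404 of 18051) and 10 with no filter (1713 of 33929). It gave 0 with the series term, 0 against 1.5-fold (510 of 18051) and 1 lower with library size scaling (1882 of 18051). Mixed minus luminal gave 21 higher. It gave 34 with library size scaling, 33 with DESeq2 (3222 of 18051), 32 with no filter (2987 of 33929) and 44 with the 2 groups alone (3114 of 16772). It gave 2 against 1.5-fold (1279 of 18051) and 0 with the series term, which gave 1 lower and a median of -0.073. In that fit Mrps22 was at -0.093 and Mrps21 at -0.13 between mixed and luminal, against 0.70 and 0.84, and the position of the mixed aggregates was 19.8%. Library size scaling shifted the median of all genes to -0.17, -0.22 and -0.06 in luminal minus basal, mixed minus basal and mixed minus luminal. With it, 3249 of 18051 tested genes were called lower in luminal minus basal, so the members' share called lower was then above that of tested genes. In mixed minus luminal 2931 tested genes were called higher. Fits without a filter tested 78 members.

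Leaving out each library in turn gave 0 to 2 higher and 0 to 12 lower in luminal minus basal (median -0.43 to -0.03), 0 to 32 higher in mixed minus basal (0.14 to 0.61) and 4 to 46 higher in mixed minus luminal (0.46 to 0.72). Over all tested genes (18853 to 19030 per fit), luminal minus basal gave 1642 to 2533 higher and 1907 to 2860 lower. Mixed minus basal gave 558 to 2627 higher and mixed minus luminal 1550 to 3400. The position ranged from 91.0% to 168%, and the mean shares from 0.455% to 0.568% for basal, 0.367% to 0.434% for luminal and 0.584% to 0.612% for mixed aggregates. The libraries that moved a count most were basal 2, luminal 1 and luminal 3; the cause was not tested.

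The title numbers do not pair the libraries: same-numbered libraries correlated at -0.17 to 0.20 after removing group means, and 4 of 9 correlated best with their own number. With that number as a replicate block, 4 members were called higher in mixed than basal aggregates.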
